A study of Mus musculus with 8 samples.

Results

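Interleukin-2 (IL-2) signalling was examined through 10 genes in sorted mouse regulatory T cells (Treg cells), a CD4 lineage that dampens immune reactions. The genes were taken by symbol, and all 10 of 10 are among the 57180 genes of the deposited table and among the 14755 genes with enough counts to be tested. They encode the receptor chains (Il2ra, Il2rb, Il2rg), the receptor-bound kinases (Jak1, Jak3), the transcription factors these kinases activate (Stat5a, Stat5b) and 3 feedback inhibitors (Socs1, Socs2, Cish). The study title concerns copper and the suppressive capacity of Treg cells. RNA was sequenced from 3 libraries labelled ChimeraKO and 5 labelled ChimeraWT. The labels give both groups as regulatory T cells sorted by FACS from different mice. The gene deleted, the strain, any treatment, the age of the mice and the meaning of "chimera" are not given in the sources used here, so no targeted gene could be checked. Since no library is tied to one animal, each p-value reflects only how far these libraries scatter, which may be technical.

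Treg cells make little IL-2 themselves and depend on IL-2 from other cells. The alpha chain CD25 (Il2ra) raises the affinity of the receptor for IL-2, and the beta chain (Il2rb) and the common gamma chain (Il2rg) carry the signal inward through JAK1 and JAK3. STAT5A and STAT5B are then phosphorylated, move to the nucleus and switch on genes that include Il2ra itself and the feedback inhibitors. These steps run mainly through protein phosphorylation, which RNA levels do not measure.

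STAT proteins bind the motif TTCNNNGAA, a palindrome, so that 1 search covers both strands. RefSeq promoter windows on GRCm38.p6, which run from 250 bases before to 50 bases after a start site, were found for 8 of the 10 genes, 10 windows in all, with none for Il2rb and Socs2. The motif was in 1 of these 10 windows, that of Cish, and in 8.3% of all 32851 windows. The Cish window held 2 matches, and 0.457% of all windows held 2 or more. Cish is a textbook STAT5 target, and its window is shown at chr9:107296409-107296708 on the plus strand, with the matches in capitals. They begin 0 and 11 bases after the RefSeq start site at 107296659, and a match describes letters, not binding. In GENCODE M21 the Cish gene starts further upstream, at 107296026, so the whole window lies within it.
Cish: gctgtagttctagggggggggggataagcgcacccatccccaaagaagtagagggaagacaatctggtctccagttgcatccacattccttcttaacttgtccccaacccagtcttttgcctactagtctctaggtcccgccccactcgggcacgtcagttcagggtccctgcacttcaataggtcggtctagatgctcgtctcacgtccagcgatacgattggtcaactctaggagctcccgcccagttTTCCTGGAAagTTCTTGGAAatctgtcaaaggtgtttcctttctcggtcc

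Stat5a and Stat5b lie next to each other on chromosome 11 and are near copies. In GENCODE M21 their coding sequences, 2391 and 2358 bases long, were identical at 90.9% of aligned bases and shared an unbroken run of 324 bases at coding positions 571 to 894. Of all 100-base windows, 11.6% of those of Stat5a and 11.7% of those of Stat5b occur in both genes. Reads from such windows cannot be assigned to one gene by sequence alone, so the split of counts between Stat5a and Stat5b is uncertain. Coding positions 795 to 994 are shown to illustrate the likeness, with the 2 differing bases in capitals.
Stat5a: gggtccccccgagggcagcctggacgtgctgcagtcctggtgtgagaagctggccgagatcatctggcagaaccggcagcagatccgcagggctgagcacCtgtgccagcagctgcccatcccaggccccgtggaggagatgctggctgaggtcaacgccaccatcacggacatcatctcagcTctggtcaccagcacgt
Stat5b: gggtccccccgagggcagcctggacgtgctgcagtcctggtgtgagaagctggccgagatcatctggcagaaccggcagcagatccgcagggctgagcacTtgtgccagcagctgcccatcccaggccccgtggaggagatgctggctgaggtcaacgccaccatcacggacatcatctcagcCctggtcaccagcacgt

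The libraries differed in depth and make-up before any gene is considered. Totals were 4314262 to 8477688 counts in ChimeraKO and 10544594 to 17976947 counts in ChimeraWT libraries. Genes with at least 10 counts numbered 12491 to 14318 in ChimeraKO and 8250 to 14090 in ChimeraWT libraries, the lowest being ChimeraWT replicate 4. TMM factors, which multiply the library sizes so that most genes come out level, were 1.318 to 1.487 in ChimeraKO and 0.4 to 1.151 in ChimeraWT libraries; a factor under 1 raises a library's normalised CPM (counts scaled to a common library size). Scaling by library totals alone moved the median log2 change of all genes by 0.63. Coordinates below are from GENCODE M21 on GRCm38. All 6 T cell markers and all 7 Treg markers were detected in every library, except that Lrrc32 was at 0 in ChimeraWT replicate 4. Summed normalised CPM of the T cell markers was 1186 to 1973 in ChimeraKO and 1936 to 18118 in ChimeraWT libraries. That of the Treg markers, Il2ra among them, was 739 to 2818 in ChimeraKO and 2651 to 6437 in ChimeraWT libraries. This sum does not follow each marker. Ikzf2 ran from 420 to 1664 normalised CPM in ChimeraKO and from 81.1 to 4634 in ChimeraWT libraries. ChimeraWT replicate 4, with a sum of 3944, had the lowest Ikzf2 of all libraries and the highest Tnfrsf18 (1356), Izumo1r (1098) and Ctla4 (934). Foxp3, which defines the lineage, was low throughout, at 26.6, 2.69 and 24.2 normalised CPM in ChimeraKO replicates 1 to 3 and 11.9, 36.6, 41.9, 3.09 and 1.26 in ChimeraWT replicates 1 to 5. ChimeraWT replicates 4 and 5 stood apart. Replicate 4 had the highest sums of T cell (18118), B cell (3108), cytotoxic (4140) and myeloid (938) markers, and replicate 5 had 9102 of erythroid markers. B cell sums were 80.0 to 194 in ChimeraKO and 199 to 3108 in ChimeraWT libraries, and the defining gene Pax5 was at 0 in 2 ChimeraKO and 2 ChimeraWT libraries. Cytotoxic sums were 18.5 to 91.1 in ChimeraKO and 48.6 to 4140 in ChimeraWT libraries, and Ncr1, which marks NK cells, was at 0 in all 8. Myeloid sums were 43.5 to 76.7 in ChimeraKO and 68.6 to 938 in ChimeraWT libraries, and erythroid sums were 0.449 to 7.16 in ChimeraKO and 0 to 9102 in ChimeraWT libraries. Without TMM scaling the sums overlapped more: Treg markers had 957 to 3800.5 CPM in ChimeraKO and 1562 to 6962 in ChimeraWT libraries, T cell markers 1535 to 2660.3 in ChimeraKO and 2061 to 7175 in ChimeraWT, and B cell markers 104 to 261 in ChimeraKO and 226 to 1231 in ChimeraWT. The part of these differences in the results below was not tested.

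None of the 10 genes passed the test, and the smallest p-values among them were those of the common gamma chain gene and Jak1, both lower in ChimeraKO libraries. By edgeR's quasi-likelihood test, adjusted over all 14755 genes, 0 of the 10 genes were called higher and 0 lower, as were 0% of all genes in each direction. At an unadjusted p under 0.05, 0 were higher, against 7.96% of all genes, and 2 were lower (Il2rg and Jak1), against 6.43%. DESeq2 gave 9 of the 10 an adjusted p (all but Socs1), and called 0 higher, against 7.13% of all genes with one, and the same 2 lower, against 11.1%. The limma-voom test with quality weights called 0, against 0.149% of all genes in either direction. The log2 change was negative for 7 of the 10 genes (median -0.72) for 56.8% of all tested genes (median -0.42) and for 66.5% of protein-coding genes (median -0.87). With library totals alone, 5 of the 10 were negative and the median was -0.01, against 0.21 for all genes.

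**Figure D1:**
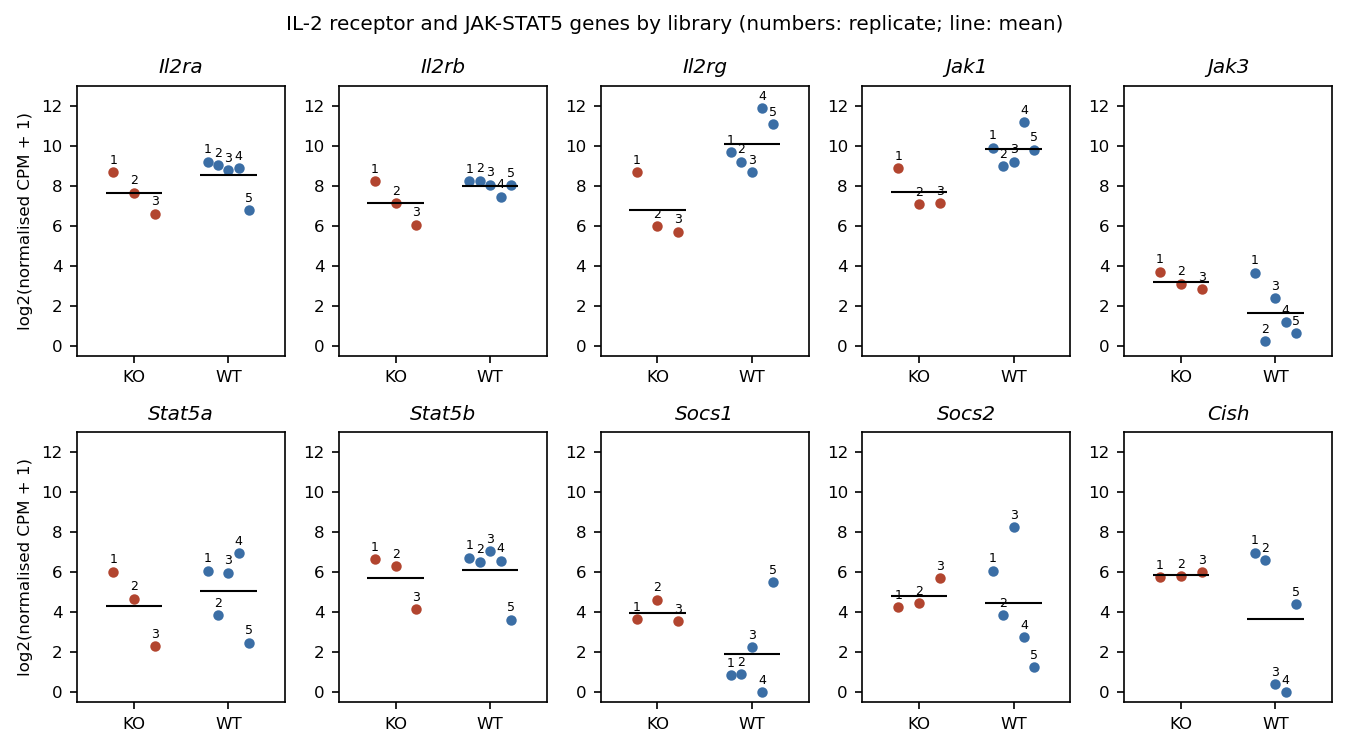
Each panel shows 1 gene, with the level in each library as log2(normalised CPM + 1) on the vertical axis, ChimeraKO libraries in red and ChimeraWT in blue, numbered by replicate, and a line at the group mean. Jak1 is the gene whose groups do not overlap, and Cish lies close together in the 3 ChimeraKO libraries but spreads from 0 to 127 normalised CPM in ChimeraWT.

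The receptor chains all had negative log2 changes, and 1 of the 3, Il2rg, had an unadjusted p under 0.05. Il2ra (ENSMUSG00000026770, chr2:11642807-11693193, plus strand), which encodes CD25, had 412, 201 and 97.5 normalised CPM in ChimeraKO replicates 1 to 3, against 597, 522, 439, 471 and 111 in ChimeraWT replicates 1 to 5. The groups overlapped through ChimeraWT replicate 5, and 4 of 5 ChimeraWT libraries lay above every ChimeraKO library. The means were 237 ± 160.1 in ChimeraKO and 428 ± 187 in ChimeraWT libraries (SD, n = 3 and n = 5), a log2 change of -0.85 (SE 0.70, 95% interval -2.42 to 0.71, edgeR adjusted p = 0.523). With library totals alone the change of Il2ra was -0.27, and with 1 library left out it ran from -1.57 (ChimeraKO replicate 1) to -0.49 (ChimeraKO replicate 3). In bulk RNA, fewer cells that express a gene and less of its RNA per cell cannot be told apart.

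Il2rb (ENSMUSG00000068227, chr15:78479256-78495271, minus strand), the signalling chain shared with the IL-15 receptor, had 302, 139.7 and 65.7 normalised CPM in ChimeraKO replicates 1 to 3, against 298, 308, 266, 176 and 264 in ChimeraWT replicates 1 to 5. ChimeraKO replicate 1 lay within the ChimeraWT range, and the other 2 ChimeraKO libraries lay below it. Its log2 change was -0.63 (SE 0.62, edgeR adjusted p = 0.588), and with library totals alone it was -0.05.

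Il2rg (ENSMUSG00000031304, chrX:101264378-101268255, minus strand), the chain shared by the receptors of a whole cytokine family, had the largest log2 change of the 10 genes in the fit to all 8 libraries. It had 415, 62.4 and 51.7 normalised CPM in ChimeraKO replicates 1 to 3, against 828, 593, 409.7, 3775 and 2193 in ChimeraWT replicates 1 to 5. The groups touched at ChimeraKO replicate 1 and ChimeraWT replicate 3, and ChimeraWT replicates 4 and 5 were the highest. The log2 change was -3.14 (SE 1.07, 95% interval -5.53 to -0.76), with an unadjusted p of 0.015 and an adjusted p of 0.325 by edgeR and adjusted p = 0.00545 by DESeq2. Without ChimeraWT replicates 4 and 5, the libraries richest in T cell and myeloid marker RNA, the log2 change was -1.81 (edgeR unadjusted p = 0.0642, adjusted p = 0.352), and DESeq2 gave an adjusted p of 0.198. In GENCODE M21, Il2rg shares 30.5% of its exon bases with Gm20489 on the same strand. Gm20489 is not among the genes with deposited counts.

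Because each library holds all 3 chains, their proportions could be compared without any scaling between libraries. Per transcript length, Il2rg made up 60.0, 32.1 and 45.1% of the 3 chains in ChimeraKO replicates 1 to 3, against 70.6, 64.9, 60.1, 93.8 and 93.7% in ChimeraWT replicates 1 to 5. The groups did not overlap, though ChimeraKO replicate 1 and ChimeraWT replicate 3 were nearly equal. The alpha chain's share averaged 31.3 ± 8.38% in ChimeraKO and 14.3 ± 10.4% in ChimeraWT libraries (SD, n = 3 and n = 5). Its groups overlapped, at 22.6 to 39.3% in ChimeraKO and 1.79 to 24.4% in ChimeraWT libraries. The lowest were ChimeraWT replicates 4 and 5, at 4.43 and 1.79%. The beta chain's share averaged 22.9 ± 5.61% in ChimeraKO and 9.06 ± 5.84% in ChimeraWT libraries (SD, n = 3 and n = 5). Since the shares are parts of the same sum, a lower Il2rg share raises the others together, and these are not separate results.

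**Figure D2:**
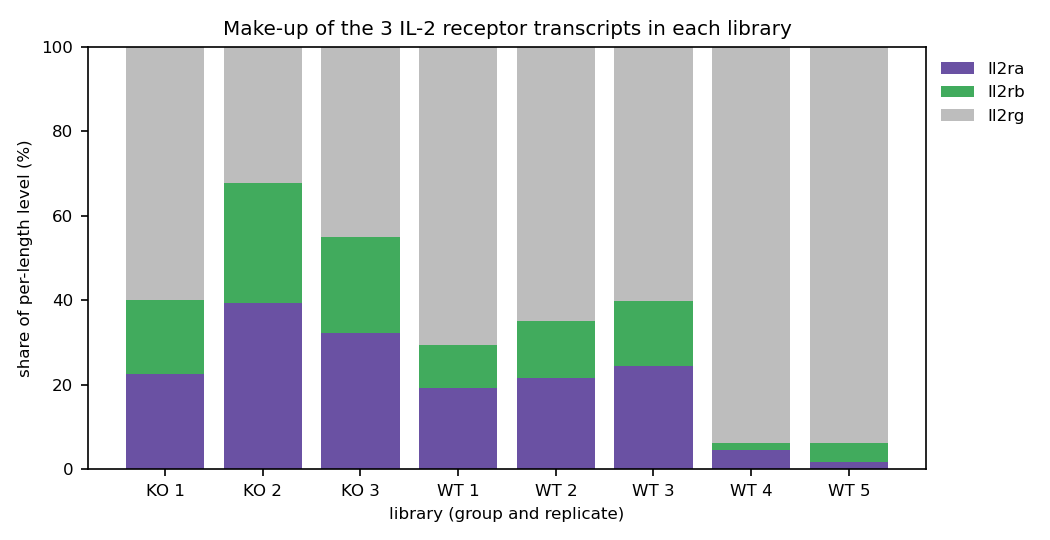
Each bar is 1 library, ChimeraKO on the left, and its height is divided by the share (%) that each chain has of the summed per-length level of the 3 receptor transcripts. The Il2rg share is 32.1 to 60.0% in ChimeraKO and 60.1 to 93.8% in ChimeraWT libraries, highest in ChimeraWT replicates 4 and 5.

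The ratios of chains were tested by exact two-sided permutation of the 8 libraries, which allows 56 splits and no p below 0.0357, with adjustment over 7 ratios. At that floor a ratio could be called only if several others reached it too. The Il2rb/Il2rg ratio was 0.290, 0.891 and 0.505 in ChimeraKO replicates 1 to 3, against 0.143, 0.207, 0.258, 0.0186 and 0.0479 in ChimeraWT replicates 1 to 5. Every ChimeraKO library lay above every ChimeraWT library, with a log2 difference of 2.46 (exact permutation p = 0.0357, the smallest possible, adjusted p = 0.125). The Il2ra/Il2rg ratio differed by 2.44 on the log2 scale (exact permutation p = 0.0714, adjusted p = 0.167), and its groups overlapped. The alpha chain and beta chain kept nearly the same proportion in the ChimeraKO libraries, with Il2ra/Il2rb ratios of 1.29, 1.37 and 1.41, against 1.90, 1.61, 1.57, 2.55 and 0.400 in ChimeraWT libraries. That log2 difference was -0.02 (exact permutation p = 0.786, adjusted p = 0.786). Without ChimeraWT replicates 4 and 5 the log2 differences were 1.05 for Il2ra/Il2rg and 1.37 for Il2rb/Il2rg.

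**Figure D3:**
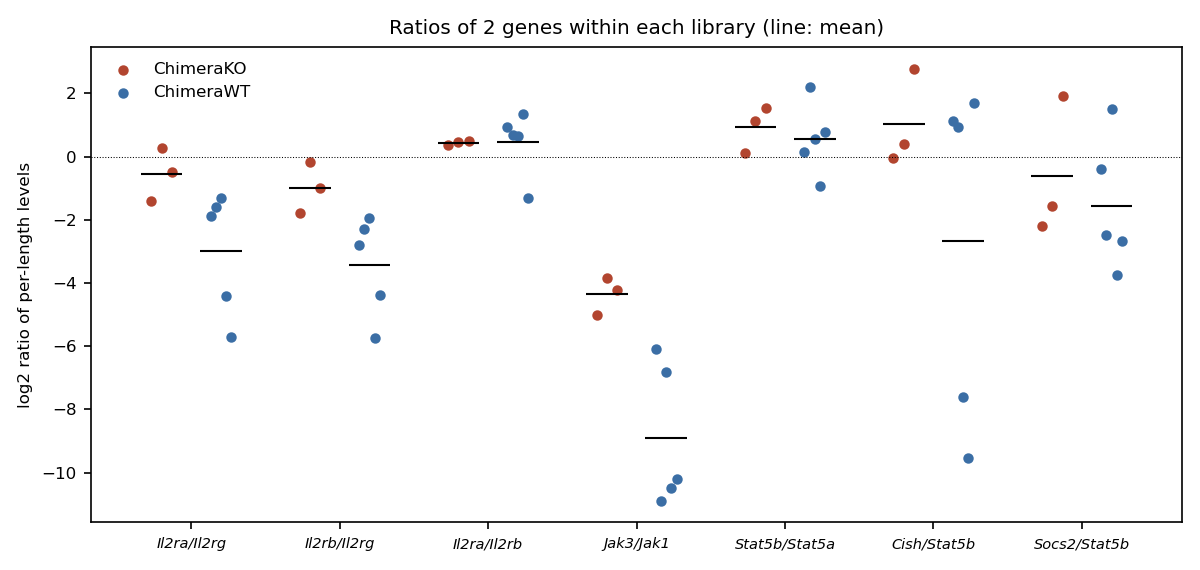
The vertical axis gives the log2 ratio of the per-length levels of 2 genes in the same library, for 7 ratios, with ChimeraKO libraries in red to the left of ChimeraWT libraries in blue and a line at each mean. The groups are apart for Il2rb/Il2rg and Jak3/Jak1, and ChimeraWT replicates 3 and 4 account for the 2 lowest Cish/Stat5b values.

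Of the kinases, Jak1 (ENSMUSG00000028530, chr4:101152367-101265282, minus strand), which binds the beta chain and also serves interferon and gp130 receptors, was lower in every ChimeraKO library. It had 476, 135 and 139 normalised CPM in ChimeraKO replicates 1 to 3, against 965, 503, 591, 2347 and 904 in ChimeraWT replicates 1 to 5. It was the 1 gene of the 10 whose groups did not overlap with ChimeraKO lower, as held for 4.49% of all tested genes, and 0 of the 10 were apart with ChimeraKO higher, against 13.2%. The log2 change was -2.09 (SE 0.74, 95% interval -3.75 to -0.43, edgeR unadjusted p = 0.0188, adjusted p = 0.325, DESeq2 adjusted p = 0.0142). With library totals alone the Jak1 groups overlapped and the log2 change was -1.17. Without ChimeraWT replicates 4 and 5 it was -1.46 (edgeR unadjusted p = 0.0377, adjusted p = 0.313), and DESeq2 gave an adjusted p of 0.149. Il2rg and Jak1 moved together over the libraries, with a Pearson correlation of 0.971 over 8 libraries that share depth and scaling.

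Jak3 (ENSMUSG00000031805, chr8:71676296-71690575, plus strand), the kinase bound to the common gamma chain, had few reads in every library. Its counts were 138, 51 and 34 in ChimeraKO replicates 1 to 3, against 140, 2, 51, 9 and 4 in ChimeraWT replicates 1 to 5, or 12.1, 7.63 and 6.09 against 11.6, 0.173, 4.29, 1.26 and 0.558 normalised CPM. ChimeraWT replicate 1 reached the ChimeraKO level and the other 4 ChimeraWT libraries lay below it. For Jak3 the log2 change was 1.26 (SE 1.28, 95% interval -1.61 to 4.12, edgeR adjusted p = 0.600). The Jak3/Jak1 ratio was 0.0312, 0.0699 and 0.0542 in ChimeraKO replicates 1 to 3, against 0.0148, 0.000527, 0.00897, 0.000696 and 0.000850 in ChimeraWT replicates 1 to 5. Every ChimeraKO library was above every ChimeraWT library, a log2 difference of 4.54 (exact permutation p = 0.0357, the smallest possible, adjusted p = 0.125), and without ChimeraWT replicates 4 and 5 it was 3.57. Jak3 shares 7.55% of its exon bases with the neighbouring hormone gene Insl3 on the same strand, so reads there cannot be assigned by position. Insl3 itself was listed at 118, 240.3 and 40.0 counts in ChimeraKO replicates 1 to 3 and 216, 205, 498, 157 and 15 in ChimeraWT replicates 1 to 5, in most libraries more than Jak3.

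The signal transducers overlapped widely between the groups. Stat5a (ENSMUSG00000004043, chr11:100859351-100885169, plus strand) had 64.5, 24.7 and 3.94 normalised CPM in ChimeraKO replicates 1 to 3, against 66.7, 13.7, 62.6, 125 and 4.60 in ChimeraWT replicates 1 to 5. Stat5b (ENSMUSG00000020919, chr11:100780731-100850724, minus strand) had 101, 77.8 and 16.8 in ChimeraKO replicates 1 to 3, against 106, 92.5, 134, 95.4 and 11.4 in ChimeraWT replicates 1 to 5. For both genes the lowest libraries were ChimeraKO replicate 3 and ChimeraWT replicate 5. The log2 changes were -0.81 for Stat5a (SE 1.26, edgeR adjusted p = 0.733) and -0.43 for Stat5b (SE 0.94, edgeR adjusted p = 0.810), and with library totals alone they were 0.03 and 0.15. The ratio of Stat5b to Stat5a, per length, was 1.08, 2.17 and 2.90 in ChimeraKO and 1.10, 4.66, 1.48, 0.529 and 1.70 in ChimeraWT libraries, a log2 difference of 0.37 (exact permutation p = 0.714, adjusted p = 0.786). This ratio rests on the split of reads between near copies described above.

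The feedback inhibitors varied widely among the ChimeraWT libraries. Socs1 (ENSMUSG00000038037, chr16:10782240-10785536, minus strand), which blocks JAK kinases, had 134, 160 and 61 counts in ChimeraKO replicates 1 to 3, against 10, 10, 45, 0 and 322 in ChimeraWT replicates 1 to 5. In normalised CPM these were 11.7, 23.9 and 10.9, against 0.830, 0.867, 3.78, 0 and 44.9. The other 4 ChimeraWT libraries lay below all ChimeraKO libraries, and ChimeraWT replicate 5 lay above them. For Socs1 the log2 change was 0.62 (SE 1.76, edgeR adjusted p = 0.858), and DESeq2 gave no p-value with all 8 libraries. Without ChimeraWT replicates 4 and 5 the change was 3.11 (edgeR unadjusted p = 0.0247, adjusted p = 0.288, DESeq2 adjusted p = 0.0287). That fit was chosen after seeing the data and leaves out the 1 library above the ChimeraKO libraries. In it DESeq2 called 9.18% of all genes with an adjusted p.

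Socs2 (ENSMUSG00000020027, chr10:95385362-95417180, minus strand), which acts on growth hormone signalling and is induced by STAT5, had 18.1, 21.2 and 51.9 normalised CPM in ChimeraKO replicates 1 to 3, against 66.7, 13.6, 308, 5.76 and 1.39 in ChimeraWT replicates 1 to 5. The ChimeraKO libraries lay inside the ChimeraWT range, which ChimeraWT replicate 3 set at the top. For Socs2 the log2 change was -1.38 (SE 1.56, edgeR adjusted p = 0.635), and without ChimeraWT replicate 3 it was 0.50.

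Cish (ENSMUSG00000032578, chr9:107296026-107302784, plus strand), which encodes the STAT5-induced inhibitor CIS and carries the paired motif shown above, had 610, 374 and 356 counts in ChimeraKO replicates 1 to 3, against 1526, 1116, 4, 0 and 146 in ChimeraWT replicates 1 to 5. In normalised CPM these were 53.4, 55.9 and 63.7, against 127, 96.8, 0.336, 0 and 20.4. The ChimeraKO libraries were close to one another, whereas the ChimeraWT libraries ran from a count of 0, which allows up to 3 counts, to above every ChimeraKO library. The means were 57.7 ± 5.40 in ChimeraKO and 48.8 ± 58.9 in ChimeraWT libraries (SD, n = 3 and n = 5), with a log2 change of 0.24 (SE 1.75, 95% interval -3.68 to 4.16, edgeR adjusted p = 0.949). ChimeraWT replicates 3 and 4, at 4 and 0 Cish counts, had 1596 and 679 counts of Stat5b, so the ratio Cish/Stat5b was 0.00516 and 0.00135 there and 0.966 to 6.90 in ChimeraKO libraries. The log2 difference of that ratio was 3.72 (exact permutation p = 0.429, adjusted p = 0.75) and that of Socs2/Stat5b was 0.94 (exact permutation p = 0.536, adjusted p = 0.75).

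**Figure D4:**
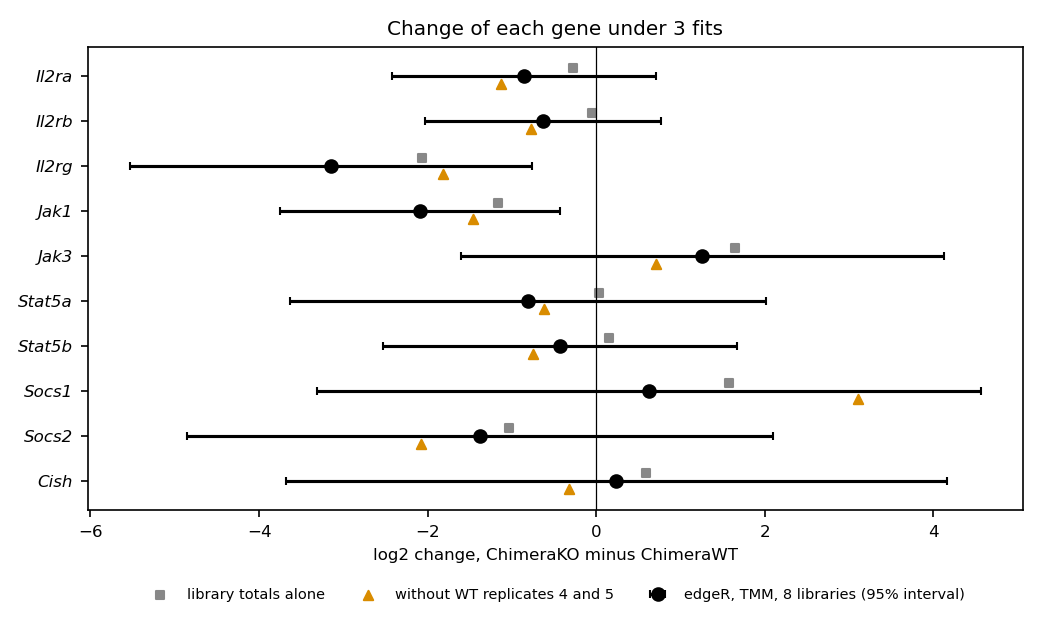
The horizontal axis gives the log2 change of each gene, ChimeraKO minus ChimeraWT; black points with 95% intervals come from edgeR on 8 libraries, grey squares from library totals alone and orange triangles from the 6 libraries without ChimeraWT replicates 4 and 5. The intervals of Il2rg and Jak1 lie below 0 and the other 8 include 0.

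Set in order by TPM (length-normalised abundance), which compares levels per transcript length, Il2rg stood first in both groups, at a mean of 248 ± 298 TPM in ChimeraKO and 877 ± 329 TPM in ChimeraWT libraries (SD, n = 3 and n = 5). Jak3 stood last, at 4.94 ± 2.05 TPM in ChimeraKO and 1.57 ± 2.41 TPM in ChimeraWT libraries. In ChimeraKO libraries the order after Il2rg was Il2ra, Jak1, Il2rb, Cish, Stat5b, Stat5a, Socs2 and Socs1. In ChimeraWT libraries it was Jak1, Il2ra, Il2rb, Cish, Socs2, Stat5b, Stat5a and Socs1. Of the neighbours in the ChimeraKO order, Stat5b over Stat5a and Socs1 over Jak3 held in 3 of 3 libraries, and in the ChimeraWT order Il2rg over Jak1 and Il2rb over Cish held in 5 of 5. The other neighbours changed places in at least 1 library: Il2ra was above Jak1 in 1 of 3 ChimeraKO libraries, and Socs2 was above Stat5b in 1 of 5 ChimeraWT libraries, replicate 3, which raised its mean.

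By correlation of log2 normalised CPM over the 8 libraries, among 8127 protein-coding genes, the genes most like Il2ra were Lcp2 (r = 0.979), Ubr1 (0.977), Fryl (0.971), Surf2 (0.966) and Zftraf1 (0.963). Those most like Cish were Phf20 (0.994), Txnrd1 (0.983), Kif2a (0.968), Ube2d1 (0.967) and Cnpy4 (0.967). All of these values rest on 8 points that share depth and scaling, and they are given as a description. Among the 10 genes themselves, Il2ra correlated most with Stat5b (r = 0.913).

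The other genes of the pathway were counted in 5 lists of 67 genes, of which 58 were tested. By edgeR 0 were called in either direction, and 7 of the 58 had an unadjusted p under 0.05 (6 of them lower in ChimeraKO), against 14.4% of all tested genes. DESeq2 called 10 of the 48 that it gave an adjusted p, 9 of them lower, or 20.8% against 18.3% of all genes with one. Without ChimeraWT replicates 4 and 5 it called 5 of 53 (Pias3, Cblb, Bcl2, Bcl2l1 and Mcl1), or 9.43% against 9.18%, and 1 of the 10 genes (Socs1). The log2 change was negative for 46 of the 58 (median -0.94) and for 66.5% of all protein-coding genes (median -0.87). By edgeR, 0 of the pathway genes were called without ChimeraWT replicates 4 and 5. Groups did not overlap for 5 of the 58 with ChimeraKO lower, against 4.49% of all tested genes. They did not overlap for 1 with ChimeraKO higher, against 13.2%. Singled out after their values were seen, Cblb and Pias3 had smaller edgeR p-values than Il2rg and Jak1 and groups that did not overlap. Cblb is a ubiquitin ligase that restrains T cell activation, and Pias3 is an inhibitor of STAT proteins. With library totals alone the Cblb groups overlapped, at up to 75.6 CPM in ChimeraKO and from 73.5 in ChimeraWT libraries. Cblb had 56.1, 37.8 and 24.9 normalised CPM in ChimeraKO replicates 1 to 3, against 254, 131, 194, 186 and 229 in ChimeraWT replicates 1 to 5 (edgeR adjusted p = 0.325, DESeq2 adjusted p = 1.08e-05). Pias3 had 6.73, 4.19 and 16.1 in ChimeraKO replicates 1 to 3, against 0.581, 0.607, 1.01, 1.26 and 2.51 in ChimeraWT replicates 1 to 5 (edgeR adjusted p = 0.325, DESeq2 adjusted p = 0.0263).

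In the common gamma chain family 7 of 12 genes were tested, 5 of them negative, with a median of -1.25. Il7r, the IL-7 receptor chain that pairs with the common gamma chain and is kept low on Treg cells, had 439, 87.5 and 108 normalised CPM in ChimeraKO replicates 1 to 3, against 304, 856, 464, 1017 and 1147 in ChimeraWT replicates 1 to 5. The log2 change of Il7r was -1.84 (SE 0.75, edgeR adjusted p = 0.325, DESeq2 adjusted p = 0.0239). Il7r was not called by DESeq2 without ChimeraWT replicates 4 and 5. Il15ra was at 5.71 ± 2.84 normalised CPM in ChimeraKO and 51.3 ± 98.1 in ChimeraWT libraries, and Il21r at 12.7 ± 3.19 in ChimeraKO and 41.7 ± 65.1 in ChimeraWT libraries (SD, n = 3 and n = 5). Each ChimeraWT mean was raised by 1 library, at 226 for Il15ra (replicate 5) and 157 for Il21r (replicate 4). The log2 changes were -3.16 for Il15ra (edgeR adjusted p = 0.485) and -1.71 for Il21r (edgeR adjusted p = 0.510). Without ChimeraWT replicates 4 and 5 they were -0.79 and -0.26.

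All 7 of the other JAK and STAT genes were tested and 5 were negative, with a median of -0.69. Stat4, which transmits IL-12 signals, had 92.4, 46.7 and 25.8 normalised CPM in ChimeraKO replicates 1 to 3, against 49.6, 262, 524, 1022 and 276 in ChimeraWT replicates 1 to 5. The log2 change of Stat4 was -2.96 (SE 0.99, edgeR adjusted p = 0.325, DESeq2 adjusted p = 0.00517), and ChimeraWT replicate 1 fell among the ChimeraKO libraries. Stat4 was not called by DESeq2 without ChimeraWT replicates 4 and 5. Stat6, the IL-4 transducer, had a log2 change of -0.60 (SE 0.97, edgeR adjusted p = 0.743).

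Of the 18 other negative regulators 14 were negative, with a median of -1.01. Ptprc (CD45), a phosphatase on the surface of leukocytes, averaged 1551 ± 1242 normalised CPM in ChimeraKO and 4129.9 ± 899.8 in ChimeraWT libraries (SD, n = 3 and n = 5). Every ChimeraKO library of Ptprc was lower (edgeR adjusted p = 0.325, DESeq2 adjusted p = 0.0217). Ptprc was not called by DESeq2 without ChimeraWT replicates 4 and 5. With library totals alone the Ptprc groups overlapped, at up to 4021 CPM in ChimeraKO and from 1798 in ChimeraWT libraries. Dusp2, a nuclear phosphatase of MAP kinases, had a log2 change of -1.47 and Ptpn2, a phosphatase that acts on JAK1, JAK3 and STATs, of -1.08, with edgeR adjusted p of 0.407 and 0.713. Of the 7 tested adaptors and other arms of the receptor, 6 were negative, with a median of -1.35. The kinase gene Lck had a log2 change of -1.35 and the PI3-kinase subunit gene Pik3cd of -0.69, and Grb2, an adaptor, of 0.17.

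Of the 20 tested genes known to respond to STAT5 in T cells, 17 were negative, with a median of -0.87, the same as that of all protein-coding genes to 2 decimals. Ctla4, an inhibitory receptor of Treg cells, had 355, 118 and 78.4 normalised CPM in ChimeraKO replicates 1 to 3, against 423, 765, 741, 934 and 420.0 in ChimeraWT replicates 1 to 5. Every ChimeraKO library of Ctla4 was lower (log2 change -1.84, SE 0.66, edgeR adjusted p = 0.325, DESeq2 adjusted p = 0.0107). With library totals alone the Ctla4 groups overlapped, at up to 479 CPM in ChimeraKO and from 286 in ChimeraWT libraries. Tnfrsf18, the costimulatory receptor GITR, had a log2 change of -3.57 (edgeR adjusted p = 0.325, DESeq2 adjusted p = 0.00629). Neither Ctla4 nor Tnfrsf18 was called by DESeq2 without ChimeraWT replicates 4 and 5, whereas Bcl2, Bcl2l1 and Mcl1 of this list were. Tnfrsf4, which encodes the costimulatory receptor OX40, averaged 115 ± 133 normalised CPM in ChimeraKO and 460.1 ± 351 in ChimeraWT libraries (SD, n = 3 and n = 5, edgeR adjusted p = 0.372).

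**Figure D5:**
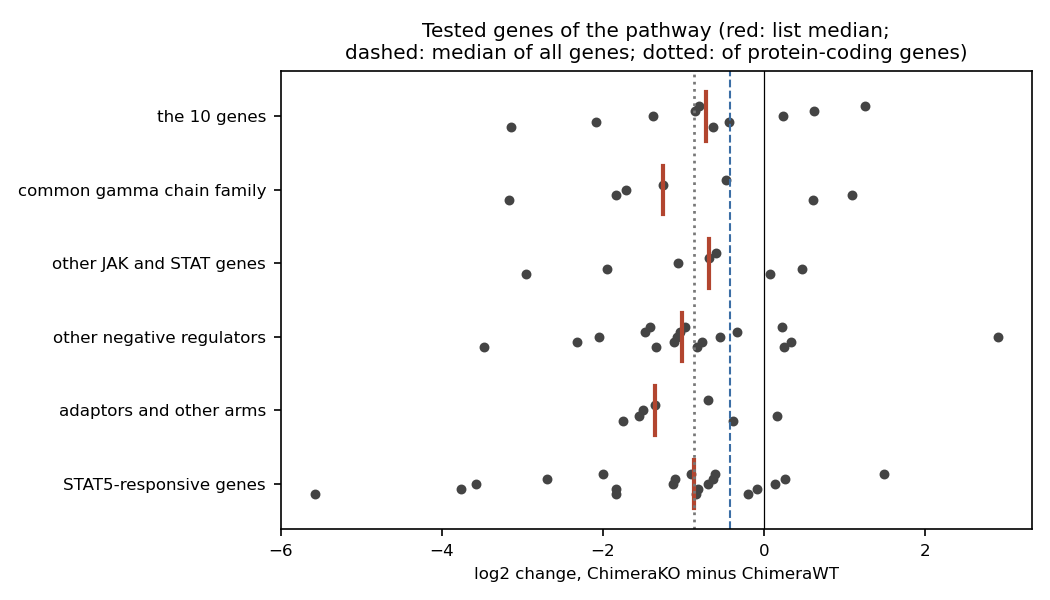
Each point is the log2 change of 1 tested gene, ChimeraKO minus ChimeraWT, in the 10 genes and in 5 lists of other pathway genes; red marks give the median of each list the dashed line the median of all tested genes, at -0.42, and the dotted line that of protein-coding genes, at -0.87. The medians run from -1.35 to -0.69, all to the left of the dashed line; those of the 10 genes (-0.72) and of the other JAK and STAT genes (-0.69) lie to the right of the dotted line.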

How the data were processed

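Gene lengths and expected counts, which are estimates that need not be whole, were deposited by the authors in 1 table, per the file headers and the values. Tools listed in the submitters' processing notes, with no versions or roles, are RSEM, StringTie, HISAT2, fastp and DESeq2, on the mm10 build. Libraries came from a low-input kit with 10 ng of total RNA per the labels' protocols; it does not mark strand. No source used here gives the annotation behind the counts. The authors' group means were not used, and 0 columns belonged to other samples.

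Expected counts were rounded. In R 4.3.3, edgeR 4.0.16 was fitted to all 8 libraries with TMM scaling, a filterByExpr minimum of 10 counts and a two-sided quasi-likelihood test, with Benjamini-Hochberg adjustment over all genes and a threshold of 0.05. The SE is the log2 change over the square root of F. TPM and ratios (pseudocount 0.5) used the deposited lengths. Alternatives were DESeq2 1.42.0, limma-voom (limma 3.58.1), other scalings and filters, a replicate block and leaving out libraries. The procedure was also run on simulated data, with the outcome not given here. The edgeR fit had a common dispersion (spread between libraries of a group beyond counting error) of 1.67, so true changes can go uncalled. Stat5a and Stat5b were compared by coding bases, in place of the proteins first planned. Coordinates are those of GENCODE M21 on GRCm38. Libraries of one group differed by at least 66.8 in chi-square per degree of freedom. A count of 0 allows up to 3 counts, which covers counting error only. Per list, the 3 genes with the highest mean TPM were named, beside the 10 genes, except 1 gene that is not reported here; the 5 most alike genes were named for Il2ra and Cish. The 10 genes and all lists were chosen with earlier results of these data known.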

Additional observations from a re-analysis of the deposited data

Results flagged for a closer look

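Dixon's criterion (gap over range above 0.71) was applied to 17 groups of 5 ChimeraWT values (10 genes and 7 ratios). In 5 of these groups 1 library lay far from the others. The criterion flags about 1 in 20 by chance only for normally distributed values. It was applied to normalised CPM and ratios not in logs, and all 5 flags were the highest value of their group. The Socs2 and Socs2/Stat5b flags also share a Socs2 value, so the number of flags cannot be set against 1 in 20. ChimeraWT replicate 4 had 2347 normalised CPM of Jak1, with the next library at 965. ChimeraWT replicate 5 had 44.9 normalised CPM of Socs1, with the next at 3.78. ChimeraWT replicate 3 had 308 normalised CPM of Socs2, with the next at 66.7, and its Socs2/Stat5b ratio was 2.82, with the next at 0.771. ChimeraWT replicate 2 had a Stat5b/Stat5a ratio of 4.66, with the next at 1.70. The ChimeraKO group, with 3 libraries, was too small for this criterion.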

How the results depend on the processing

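Over 18 alternatives, 0 of the 10 genes were called under 16, all of those by edgeR or limma-voom. DESeq2 called 2 (Il2rg and Jak1) and, without ChimeraWT replicates 4 and 5, 1 (Socs1); of the other pathway genes it called 10 and 5, and edgeR and limma-voom called 0. Over all genes with an adjusted p, DESeq2 called 18.3% and, without those replicates, 9.18%. Fits without those replicates were chosen after seeing the data. Of the 10 genes, those whose groups did not overlap numbered 3 with DESeq2 size factors and 0 with library totals alone. They numbered 2 without ChimeraWT replicates 2 and 3 (the 2 libraries with another name prefix) and 3 without ChimeraWT replicates 4 and 5. With each library left out in turn they numbered 1 to 3. The share of all genes was computed only for the main fit (4.49% lower, 13.2% higher in ChimeraKO). These counts therefore have no share of all genes to be set against. No ratio was called, but with any library left out the smallest possible p was 0.0571 to 0.1, so none could be.

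Over the 18 alternatives, log2 changes ran from -1.57 to -0.27 for Il2ra, -1.41 to -0.05 for Il2rb, -4.84 to -1.81 for Il2rg, -3.02 to -1.17 for Jak1, 0.61 to 2.44 for Jak3 and 0.0012 (without ChimeraWT replicates 2 and 3) to 3.52 (without ChimeraWT replicate 5) for Socs1. With library totals alone the log2 change was 0.029 for Stat5a and 0.15 for Stat5b. Without ChimeraWT replicates 2 and 3 it was 0.16 for Stat5b and 0.53 for Socs2. With 1 library left out it ran from -0.94 to 0.0090 for Stat5b (positive without ChimeraKO replicate 3), from -2.03 to 0.50 for Socs2 (positive without ChimeraWT replicate 3) and from -0.079 to 0.99 for Cish (negative without ChimeraWT replicate 3 or 4). Without ChimeraWT replicates 4 and 5 it was -0.33 for Cish by edgeR and -0.49 by DESeq2. The Il2ra/Il2rb difference was 0.12 without ChimeraWT replicates 2 and 3 and, with 1 library left out, -0.46 to 0.20. That of Socs2/Stat5b was -0.33 to 1.72 with 1 library left out (negative without ChimeraKO replicate 3). Without ChimeraWT replicates 4 and 5 it was -0.16, and that of Stat5b/Stat5a was -0.050. The cause was not tested.

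No pairing by replicate number was seen, as same-numbered libraries correlated at 0.0175 to 0.0466 in their deviations from the group means. With scatter within groups this wide a pairing could go unseen, so it is not excluded. With a replicate block 0 of the 10 genes were called, and Il2rg changed by -2.44 and Jak1 by -1.67 (edgeR adjusted p = 0.531 each). Low counts limit Jak3 and Socs1.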
